A study of Mus musculus with 14 samples.

Results

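Serum proteins at 2 h of wet dressing at atmospheric pressure (AP 2 h) were compared with those at 0 h, the control of the same dressing, in mice with a full-thickness skin wound on the back. The comparison took the 2 AP 2 h samples and the 2 samples at 0 h, which are 4 of the 14 samples of the series, and every one of the 111 analytes of the array. All mice were 8-week-old male C57BL/6JNarl animals, wounded with a biopsy punch under isoflurane, with diazepam and ketorolac given as needed, and the other groups of the series were AP at 0.5 and 16 h and negative pressure at 0.5, 2 and 16 h. Portions of serum from several animals were combined for each membrane, so a sample is a pool. Experiments were run in repeat except, by the submitters' note, for the 0 h control, which nevertheless has 2 samples. The methods speak of independent experiments, but no source used here ties each sample to its mice, so the p-values cover the spread between samples only, and that spread may be technical.

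Blood that leaves a cut vessel meets tissue factor, which starts the clotting cascade, while platelets adhere, aggregate and empty granules that hold growth factors and adhesion molecules. Inhibitors of fibrinolysis keep the clot in place, and endothelial cells, stromal cells and resident leukocytes of the wounded skin release chemokines that call neutrophils first and monocytes and lymphocytes later. A cytokine membrane array reads such proteins in serum at once, each by an antibody pair, and serum is itself made by letting blood clot, so that platelet products are part of it.

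Each membrane carries reference spots at 3 positions, which are not made by the serum proteins and serve to compare membranes, and a negative control. The 3 positions were uneven at AP 2 h, at 46224, 24621 and 35625 in replicate 1 and 43851, 21374 and 36325 in replicate 2. At 0 h they were closer in proportion, at 172546, 165069 and 151518 and at 178164, 163186 and 162885. The reference spots had mean raw intensities of 35490 and 33850 on the AP 2 h membranes, against 163044 and 168078 on the 0 h membranes, so they were 4.78 times brighter at 0 h. The median raw intensity of the analytes went the other way, at 3467 and 3272 on the AP 2 h membranes and 1448 and 2263 on the 0 h membranes. The negative control had raw intensities of 70 and 31 on the AP 2 h membranes and 73 and 21 on the others, and 108 and 111 analytes exceeded it at AP 2 h, against 110 and 111 at 0 h. For this reason levels are given as a percentage of the sample's mean reference spot, and next to it stands the rank of the analyte within its membrane, from 1 for the dimmest to 111 for the brightest, which no scaling of a membrane as a whole can change.

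Replicates lay close to each other on both measures. The replicates at AP 2 h differed by a median of 10.0% in the level of an analyte and those at 0 h by 12.9%, and the largest gap in rank between replicates was 26 at AP 2 h and 35.5 at 0 h, among the dim analytes. The order of the analytes was largely shared between the times, with a Spearman rho of 0.90 between the mean ranks at AP 2 h and at 0 h across the 111 analytes, which are not independent replicates. Proteins that circulate in every serum lay in the middle or the bright part of all 4 membranes. Adiponectin, a hormone of fat tissue, had rank 105 on both AP 2 h membranes and 107 on both 0 h membranes, and the 7 plasma proteins of the marker list had ranks from 54 to 105 at AP 2 h and from 60 to 107 at 0 h.

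By the reference spots nearly the whole array was higher at AP 2 h. Of the 111 analytes, 96 were higher and 3 were lower after Benjamini-Hochberg adjustment in limma, which is 86.5% and 2.7% of the array, and 12 did not pass the test at an adjusted p of 0.05. The median analyte had a log2 difference in level, AP 2 h minus 0 h, of 1.34. This shift is set by the reference spots. With the authors' normalized intensities, which leave the groups at their own brightness, 18 analytes were higher and 64 lower and the median was −0.93. With each membrane divided by its median, 6 were higher and 79 lower, and with quantile normalization 28 were higher and 38 lower. Differences of single analytes are therefore read against 1.34 and against the change in rank. In rank 26 analytes (23.4%) were higher and 34 (30.6%) lower at AP 2 h. Of these 34, 22 were called higher in level by the reference spots. A fall in rank is thus a fall relative to the other analytes of the membrane, not a lower level.

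**Figure D1:**
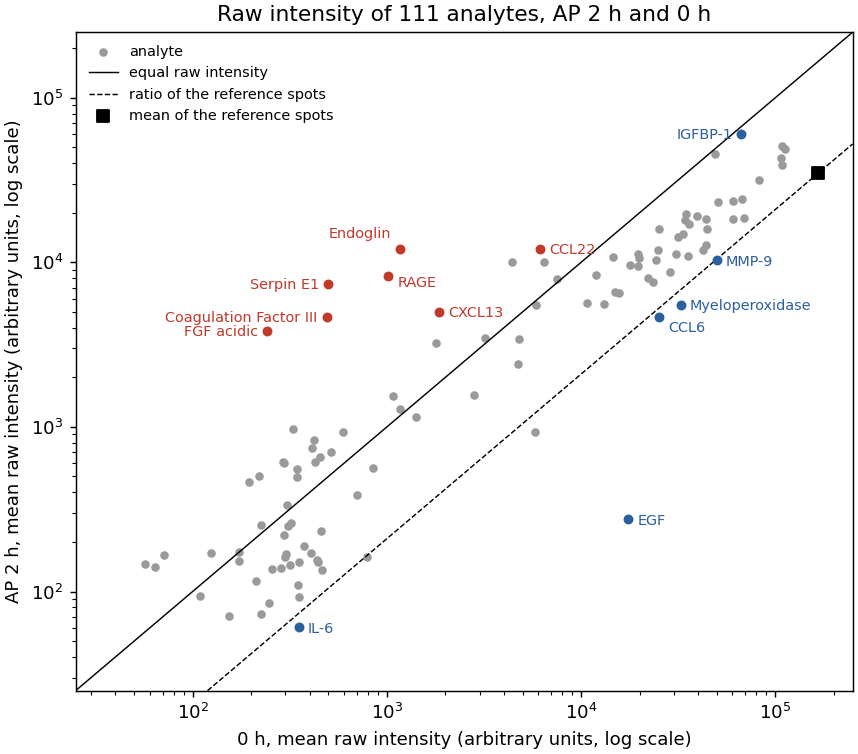
Mean raw intensity of each of the 111 analytes at AP 2 h (vertical axis) and at 0 h (horizontal axis), both in arbitrary units on log scales, with the named analytes in red where the raw mean was higher at AP 2 h and in blue where it was lower. The solid line marks equal raw intensity and the dashed line the ratio of the reference spots, and most analytes lie between the lines or above both, with EGF alone far below the dashed line.

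Raw intensities, with no scaling at all, divided the array by brightness. 27 analytes were brighter on both AP 2 h membranes than on both 0 h membranes in spite of the dimmer reference spots, 69 were dimmer on both, and 15 overlapped. All 37 of the analytes that were brightest at 0 h lost raw intensity, against 18 of the middle 37 and 14 of the dimmest 37. After division by the reference spots the median log2 difference was 1.00 for the brightest 37, 1.99 for the middle 37 and 2.03 for the dimmest 37. The 0 h level enters both the sorting and the difference here, and whether the detection of bright spots was compressed was not tested.

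Under the reference spots, the authors' normalized intensity, median scaling, quantile normalization, a plane fitted through the 3 reference positions and the rank, 6 analytes were higher at AP 2 h in every one of these 6 scalings. They were FGF acidic, Serpin E1, Endoglin, Coagulation Factor III, RAGE and CXCL13. 2 analytes, EGF and CCL6, were lower in every one. The plot of levels in each sample shows these analytes with the others that had the largest differences.

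**Figure D2:**
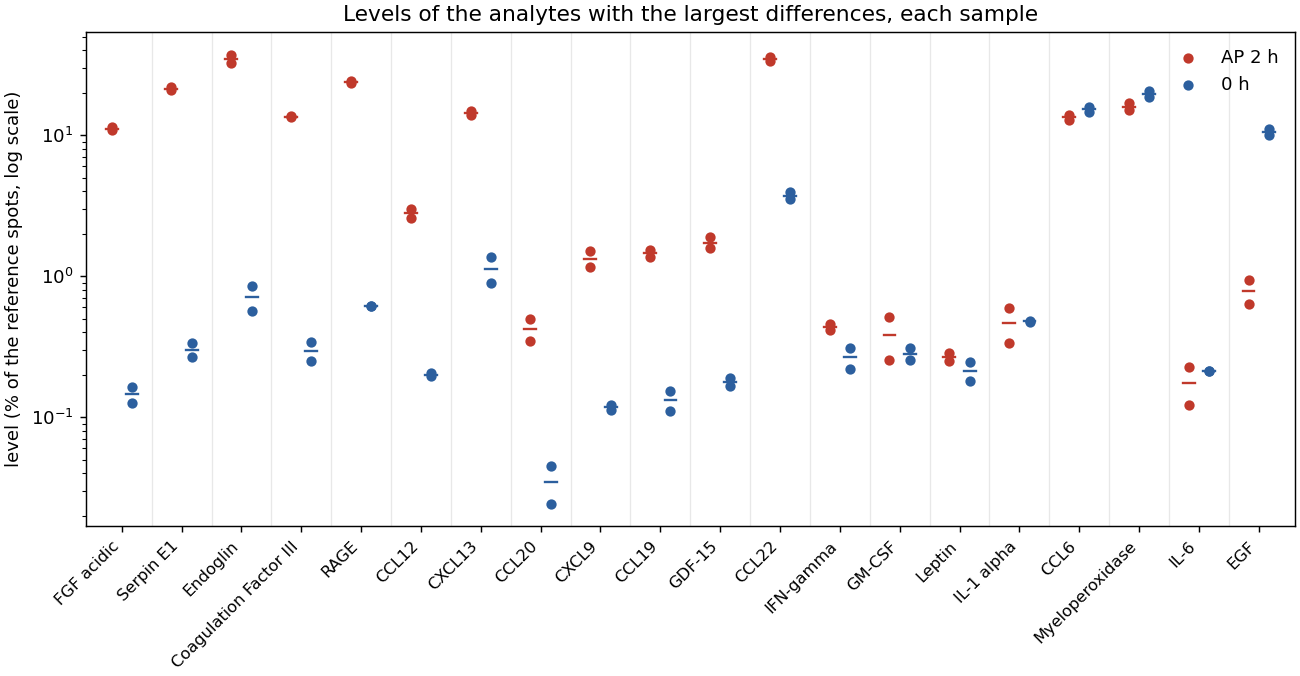
Level of each sample as a percentage of its mean reference spot (vertical axis, log scale) for the 20 analytes with the largest called differences in level or rank (horizontal axis, ordered by the log2 difference), with AP 2 h in red left of 0 h in blue, and bars at the mean of 2 samples. The 5 analytes at the left lie between 10.8% and 37.2% at AP 2 h and below 1% at 0 h, and EGF at the right shows the opposite order.

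FGF acidic (fibroblast growth factor 1), a mitogen of fibroblasts and endothelial cells that has no signal peptide and leaves cells under stress or injury, showed the largest rise. Its level was 11.4% and 10.8% of the reference spots in the AP 2 h samples, against 0.126% and 0.165% in the 0 h samples. The log2 difference was 6.26 ± 0.32 (SE, n = 2 each, adjusted p = 2.6e-11), a 76.9-fold higher level by the reference spots. It stood 4.93 above the median analyte, and the authors' normalized intensities gave a 16.0-fold rise. Its rank was 58 on both AP 2 h membranes, against 11 and 20 at 0 h, the largest rise in rank of the array (42.5, adjusted p = 0.00052). Both samples at AP 2 h stood far above both at 0 h on either measure, and the raw intensity alone was 4048 and 3654 at AP 2 h, against 206 and 277 at 0 h.

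Proteins of the vessel wall and the clot came next. Serpin E1 (plasminogen activator inhibitor 1), the main inhibitor of the activators that start fibrinolysis and an acute phase protein of rodents, was at 20.8% and 22.03% at AP 2 h, against 0.336% and 0.265% at 0 h, a log2 difference of 6.16 ± 0.17 (adjusted p = 1.9e-14). It moved to ranks 68 and 70, against 45 and 41 at 0 h (26, adjusted p = 1.1e-06). Coagulation Factor III (tissue factor), the cell surface receptor that starts clotting, was at 13.6% and 13.4% at AP 2 h, against 0.342% and 0.250% at 0 h, a log2 difference of 5.52 ± 0.25 (adjusted p = 5.6e-12). Its rise in rank of 17 passed the test over all samples (adjusted p = 0.012), but not without replicate 2 of AP 2 h (adjusted p = 0.062) or replicate 2 of 0 h (adjusted p = 0.078).

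Endoglin, a coreceptor for TGF-beta family ligands on endothelial cells that is also shed into plasma, was at 32.6% and 37.2% at AP 2 h, against 0.853% and 0.565% at 0 h. Its log2 difference was 5.65 ± 0.16 (adjusted p = 1.9e-14), and its ranks were 86 and 90, against 54 and 53 (34.5, adjusted p = 3.0e-07). It thus stood among the brightest analytes at AP 2 h and in the middle of the array at 0 h. RAGE, the receptor of glycated proteins and of alarmins such as HMGB1 and S100 proteins, was at 24.3% and 23.4% at AP 2 h, against 0.613% and 0.616% at 0 h, a log2 difference of 5.28 ± 0.39 (adjusted p = 2.5e-09). Its ranks of 72 and 73, against 51 and 54, passed the test in all samples (adjusted p = 0.017), but this call was lost without replicate 1 of AP 2 h (0.057), replicate 2 of AP 2 h (0.071) or replicate 1 of 0 h (0.073). CXCL13, the chemokine that draws B cells into follicles, was at 13.9% and 14.9% at AP 2 h, against 0.888% and 1.36% at 0 h, a log2 difference of 3.71 ± 0.15 (adjusted p = 1.9e-12) and a rise of 5 ranks (adjusted p = 0.00093).

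EGF, a mitogen of keratinocytes that mouse platelets and salivary glands hold, showed the largest fall. Its raw intensity was 334 and 215 at AP 2 h, against 18067 and 16900 at 0 h. In percent of the reference spots these are 0.941% and 0.635% at AP 2 h and 11.1% and 10.1% at 0 h, a log2 difference of −3.77 ± 0.33 (adjusted p = 1.9e-08). Its ranks were 32.5 and 30 at AP 2 h and 74 on both 0 h membranes, a rank difference of −42.75 (adjusted p = 1.1e-05), and it was the only analyte with a lower level in the reference-scaled fit, the other 5 scalings and each of 10 further settings of the reference-scaled fit that kept all analytes.

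The other analytes with a lower level moved far less. Myeloperoxidase, the peroxidase of neutrophil granules, was at 16.8% and 15.0% at AP 2 h and at 20.6% and 18.8% at 0 h, a log2 difference of −0.31 ± 0.12 (adjusted p = 0.027). CCL6, a chemokine of the rodent myeloid lineage, was at 13.9% and 12.8% at AP 2 h and at 15.9% and 14.7% at 0 h, a log2 difference of −0.20 ± 0.08 (adjusted p = 0.027). In both cases the call was lost without replicate 2 of AP 2 h (adjusted p = 0.17 for Myeloperoxidase and 0.18 for CCL6) or without replicate 1 of 0 h (0.15 and 0.16), and Myeloperoxidase was higher by 0.24, which did not pass the test, with the plane through the reference positions. In rank both fell by more. Myeloperoxidase was at ranks 64 and 63, against 88 and 87 (adjusted p = 3.0e-07), and CCL6 at 60 and 59, against 84 and 82 (adjusted p = 6.4e-07).

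**Figure D3:**
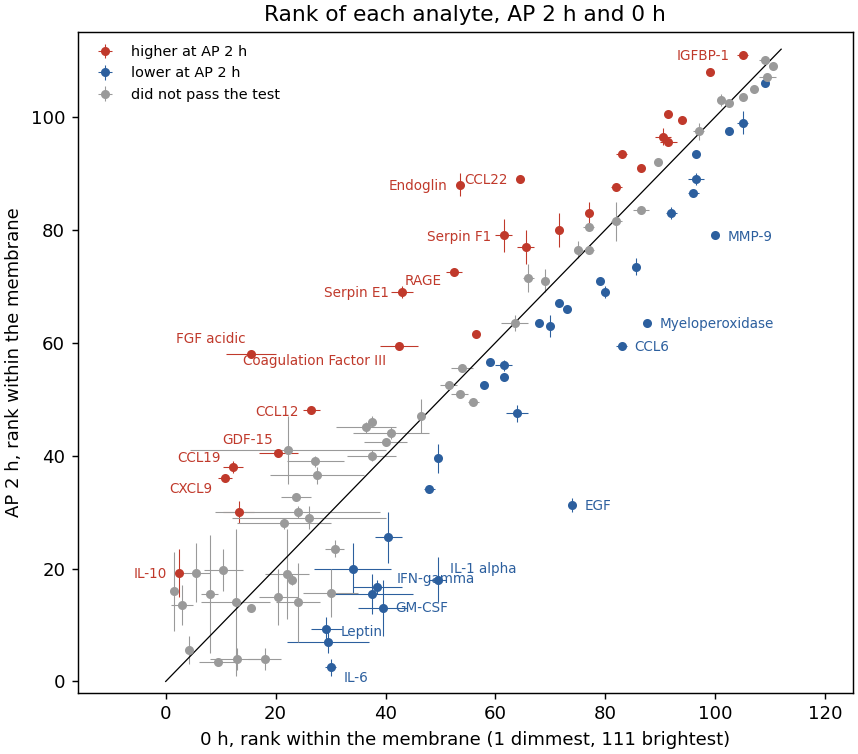
Mean rank within the membrane at AP 2 h (vertical axis) and at 0 h (horizontal axis) of the 111 analytes, with bars to both samples and the diagonal of equal rank. Red points were higher and blue points lower at AP 2 h after adjustment, grey points did not pass the test, and FGF acidic and EGF lie farthest from the diagonal on either side.

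Among the clotting and platelet proteins 3 of 8 rose in rank and 1 fell, and the median difference was 7.25 ranks, beside 0.5 ranks over the whole array. Counts in rank for this and the later lists are to be read beside 23.4% higher and 30.6% lower over the array. Serpin E1 and Coagulation Factor III rose, as did P-Selectin, the adhesion molecule that platelet and endothelial granules bring to the surface, which had ranks 100 and 101 at AP 2 h and 91 and 92 at 0 h (adjusted p = 0.00017). EGF was the member that fell. PDGF-BB, the platelet-derived growth factor of fibroblasts and smooth muscle, was at 22.4% and 23.4% at AP 2 h, against 4.27% and 4.85% at 0 h (log2 difference 2.33 ± 0.31, adjusted p = 3.5e-06), but its raw intensity overlapped between the times, at 7945 and 7937 for AP 2 h and 6962 and 8156 for 0 h. Its rank difference of 5.5 did not pass the test (adjusted p = 0.59), and neither did that of Thrombopoietin, the growth factor of megakaryocytes, with ranks 80 and 81 at AP 2 h and 78 and 76 at 0 h (adjusted p = 0.14). Angiopoietin-1, which platelets also carry, was among the 3 brightest analytes of each of the 4 membranes.

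The lymphocyte and dendritic cell chemokines were the chemokine list without a fall. 5 of 11 rose in rank, 0 fell and 6 did not pass the test, beside 23.4% higher and 30.6% lower over the array. Their median log2 difference in level was 3.16, beside 1.34 over the whole array. In raw intensity 9 of the 11 were brighter on both AP 2 h membranes, as were 27 of all 111 analytes. CCL22, a macrophage and dendritic cell product that attracts T cells through CCR4, was at 33.8% and 36.1% at AP 2 h, against 3.93% and 3.52% at 0 h, with rank 89 on both membranes, against 64 and 65 (adjusted p = 6.1e-07). CCL19, which with CCL21 guides CCR7-bearing cells to lymph nodes, was at 1.54% and 1.37%, against 0.153% and 0.111% at 0 h, a rise of 25.75 ranks (adjusted p = 2.0e-05). CCL21 itself was at rank 108 on both AP 2 h membranes and at 99 on both 0 h membranes (adjusted p = 1.4e-05).

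CXCL9, an interferon-inducible ligand of CXCR3, was at 1.50% and 1.16% at AP 2 h, against 0.123% and 0.112% at 0 h, a rise of 25.25 ranks (adjusted p = 0.00014). The related ligands CXCL10 and CXCL11 had rank differences of −5 and 2.5, which did not pass the test. CCL20, the ligand of CCR6, was at 0.349% and 0.499% at AP 2 h, against 0.0448% and 0.0244% at 0 h (log2 difference 3.66 ± 0.50, adjusted p = 4.0e-06). It was above the negative control in 1 of the 2 samples at 0 h, and its rank difference of 14.5 did not pass the test (adjusted p = 0.12).

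Of the chemokines for monocytes and eosinophils 2 of 6 were higher and 2 of 6 lower in rank, close to the shares of 23.4% and 30.6% over the array. CCL12, a ligand of CCR2 in the mouse, was at 3.01% and 2.58% at AP 2 h, against 0.204% and 0.195% at 0 h, with rank 48 on both membranes, against 28 and 25 (adjusted p = 0.00072). CCL11 (eotaxin), the chief attractant of eosinophils, was at ranks 93 and 94, against 82 and 84 (adjusted p = 0.00052). CCL6 fell, and CCL2, the other ligand of CCR2, had a rank difference of −21.75 (adjusted p = 0.033) that passed in the full fit but not without either sample of AP 2 h (0.12 and 0.091) or replicate 1 of 0 h (0.16). Of the neutrophil attractants, 0 of 3 rose and 1 of 3, CXCL2, fell in rank. LIX, a CXC chemokine present in platelets and stroma, was at rank 110 on both AP 2 h membranes, against 108 and 110 at 0 h.

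Of 4 proteins stored in neutrophil granules 3 fell in rank and 0 rose, beside 30.6% lower and 23.4% higher over the array. Their median difference was −18.75 ranks, beside 0.5 ranks over the array. MMP-9 (gelatinase B) was at rank 79 on both AP 2 h membranes and at rank 100 on both 0 h membranes (adjusted p = 4.7e-06), while its level by the reference spots was 30.3% and 29.0%, against 31.1% and 29.4% at 0 h, a log2 difference of −0.03 ± 0.09 (adjusted p = 0.75). Lipocalin-2, an iron-carrier binding protein of neutrophils and an acute phase protein, was at ranks 46 and 49, against 66 and 62 (adjusted p = 0.045), a call that was lost without any one of the 4 samples (adjusted p from 0.087 to 0.17). Chitinase 3-like 1 had ranks 83 and 84 at AP 2 h and 85 and 88 at 0 h and did not pass the test (adjusted p = 0.065). The summed level of the 4 markers was 81.5% and 79.6% of the reference spots at AP 2 h and 74.2% and 69.7% at 0 h, of which Chitinase 3-like 1 alone made up 31.8% and 32.9% at AP 2 h and 18.1% and 19.0% at 0 h. The median log2 difference in level of the 4 was −0.17.

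The early inflammatory cytokines stayed dim. 0 of 8 rose and 3 fell in rank, beside 23.4% higher and 30.6% lower over the array. In level by the reference spots 6 of the 8 were higher and 0 lower, beside 86.5% and 2.7% over the array. Their median log2 difference was 1.69, beside 1.34 over the array. IL-33 was at 2.03% and 2.27% at AP 2 h, against 0.225% and 0.270% at 0 h (3.12 ± 0.28, adjusted p = 2.3e-08). Its rank difference of 8.5 did not pass the test (adjusted p = 0.055). IL-6, the inducer of the hepatic acute phase response, had raw intensities of 80 and 41 at AP 2 h, next to 70 and 31 for the negative control, against 345 and 360 at 0 h, and ranks 4 and 1, against 29 and 31 (−27.5, adjusted p = 0.0049). IL-1 alpha, an alarmin of keratinocytes, was at ranks 22 and 14, against 48 and 51 (−31.5, adjusted p = 0.026), and this call was lost without any one of the 4 samples (adjusted p from 0.057 to 0.13). LIF, a cytokine of the IL-6 family, was at rank 34 on both AP 2 h membranes, against 49 and 47. Its level by the reference spots was higher at AP 2 h (log2 difference 1.41 ± 0.35, adjusted p = 0.0014). In level by the reference spots IL-6 and IL-1 alpha did not pass the test (log2 differences −0.37 ± 0.46 and −0.10 ± 0.45), and their samples overlapped between the times.

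Of the T cell and dendritic cell cytokines 1 of 13, IL-10, rose and 2, IFN-gamma and IL-4, fell in rank. Both counts lie below the shares of 23.4% and 30.6% over the array. IL-10, a cytokine that restrains macrophages and dendritic cells, was at 0.614% and 0.337% at AP 2 h, against 0.0485% and 0.0381% at 0 h, with ranks 23.5 and 15, against 2 and 3 (adjusted p = 0.0048, and 0.055 when only the 4 samples compared were fitted). IFN-gamma, the macrophage-activating cytokine of T and NK cells, had a rank difference of −22 (adjusted p = 0.019) that was lost without replicate 1 of AP 2 h (0.10) or replicate 2 of 0 h (0.12). Of the hematopoietic growth factors 5 of 6 were lower in rank (GM-CSF, IL-3, IL-7, M-CSF and Flt-3 Ligand) and 1 was higher (G-CSF). The array shares were 30.6% lower and 23.4% higher, and the median of the list was −11.5. In level by the reference spots 4 of the 6 (M-CSF, Flt-3 Ligand, IL-7 and G-CSF) were higher and 0 lower, beside 86.5% higher over the array. IL-3, a growth factor of early progenitors and mast cells, fell by 20 ranks (adjusted p = 0.0063) and M-CSF, the growth factor of macrophages, was at rank 71 on both AP 2 h membranes and 79 on both 0 h membranes (adjusted p = 0.000265). GM-CSF fell by 26.5 ranks (adjusted p = 0.0063), with an adjusted p of 0.0501 without replicate 2 of AP 2 h. Both were dim, with 0.318% for IL-3 and 0.516% for GM-CSF as the highest level among the 4 samples.

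**Figure D4:**
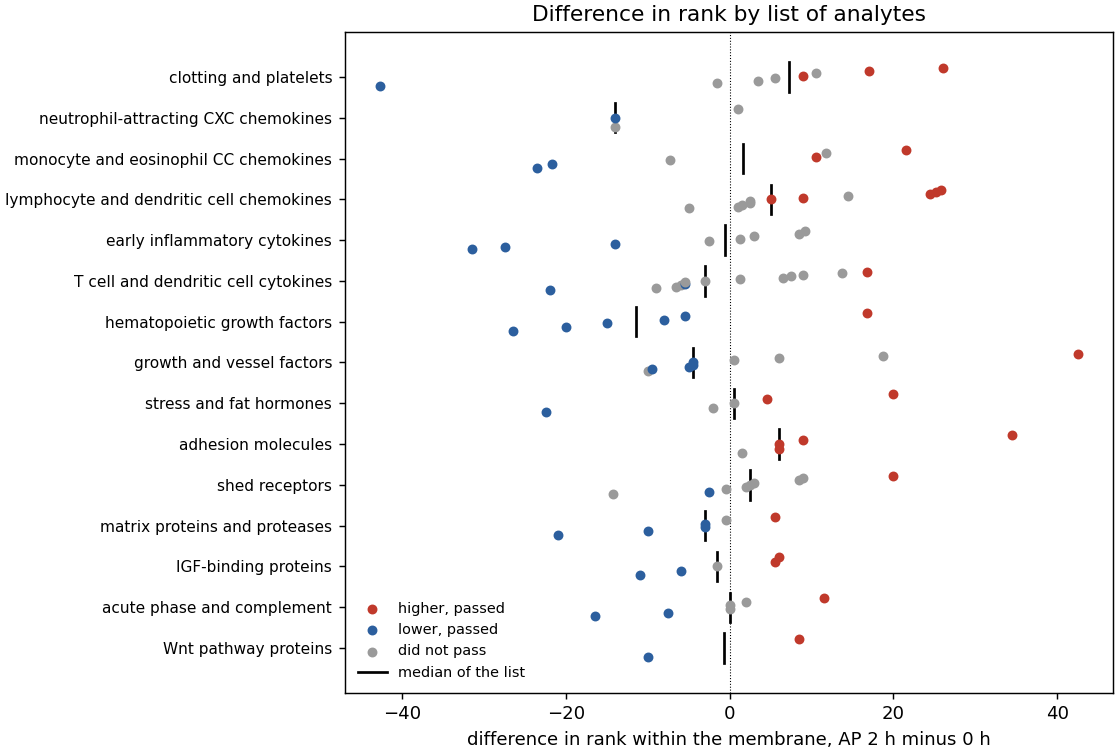
Difference in rank within the membrane, AP 2 h minus 0 h (horizontal axis), of the members of 15 lists of analytes (vertical axis), with 1 point for each analyte and a black bar at the median of the list. Red and blue points passed the test as higher and lower, grey points did not pass it, and the adhesion molecules and the lymphocyte and dendritic cell chemokines hold no blue point.

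Of the soluble adhesion molecules 4 of 5 were higher and 0 lower in rank, beside 23.4% and 30.6% over the array, with a median difference of 6 ranks. Beside Endoglin and P-Selectin these were E-Selectin, the leukocyte receptor that activated endothelium makes anew, at ranks 81 and 85, against 77 on both 0 h membranes (adjusted p = 0.0042, and 0.088 when only the 4 samples compared were fitted), and ICAM-1, the endothelial ligand of leukocyte integrins. ICAM-1 was at 53.8% and 49.9% at AP 2 h, against 21.6% and 19.6% at 0 h. Its rise of 6 ranks (adjusted p = 0.037) was lost without either sample of AP 2 h (0.19 and 0.0501) or replicate 2 of 0 h (0.18), or with only the 4 samples (0.094). VCAM-1 had a rank difference of 1.5 and did not pass. By raw intensity only Endoglin of these 5 was brighter at AP 2 h.

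Growth and vessel factors other than FGF acidic lost rank or did not pass. Of 9 members 1 rose and 4 fell, namely HGF, Endostatin, Angiopoietin-like 3 and Gas 6, beside 23.4% higher and 30.6% lower over the array. In level by the reference spots all 9 were higher, beside 86.5% over the array. HGF, a mitogen of epithelial cells, was at ranks 63 and 64, against 68 on both 0 h membranes (adjusted p = 0.0080). Endostatin, an inhibitor of vessel growth cleaved from collagen XVIII, was at 87 and 86, against 95 and 97 (adjusted p = 0.00064). VEGF and Angiopoietin-2, regulators of vessel growth and permeability, did not pass the test in rank. Among the shed receptors RAGE was the only 1 of 9 to rise in rank, and Osteoprotegerin the only 1 to fall.

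GDF-15, a stress hormone of the TGF-beta superfamily, was at 1.89% and 1.57% at AP 2 h, against 0.167% and 0.189% at 0 h, a rise of 20 ranks (adjusted p = 0.0023). Leptin, the satiety hormone of fat tissue, went the other way in rank, at 5 and 9, against 22 and 37 (adjusted p = 0.0036, and 0.088 with only the 4 samples compared), with raw intensities of 89 and 96, against 292 and 412 at 0 h. FGF-21, a fasting and stress hormone of the liver, was at 3.37% and 1.99% at AP 2 h, against 0.387% and 0.336% at 0 h (log2 difference 2.85 ± 0.29, adjusted p = 1.1e-07). Its level difference was −0.31 with median scaling (adjusted p = 0.48) and 0.14 with quantile normalization (0.70), and its rank difference of 0.5 did not pass (adjusted p = 0.88).

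Of the IGF-binding proteins, which carry insulin-like growth factors in plasma, 2 of 5 rose and 2 fell in rank within the array. Over all analytes the shares were 23.4% and 30.6%. In level by the reference spots all 5 were higher, beside 86.5% over all analytes. IGFBP-1, a product of the liver whose synthesis insulin represses, was the brightest analyte on both AP 2 h membranes, at 174% and 175% of the reference spots, and stood at ranks 106 and 104 at 0 h, at 43.3% and 37.5% (6 ranks, adjusted p = 0.00058). IGFBP-3, the main carrier, was at ranks 99 and 100, against 94 on both 0 h membranes (adjusted p = 0.011, and 0.065 without replicate 2 of AP 2 h). IGFBP-5 was at 70 and 68, against 80 on both 0 h membranes (adjusted p = 0.00071). IGFBP-2 had a rank difference of −6 (adjusted p = 0.021), which was lost without replicate 2 of AP 2 h (0.14) or replicate 2 of 0 h (0.11).

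Acute phase and plasma proteins also differed among themselves. Pentraxin 3, made in tissues by endothelial and myeloid cells, was at 27.3% and 30.5% at AP 2 h, against 4.53% and 3.26% at 0 h, a rise of 11.5 ranks (adjusted p = 0.0020, and 0.067 with only the 4 samples compared). Pentraxin 2, the serum amyloid P component of mouse liver, was at rank 54 on both AP 2 h membranes, against 62 and 61 (adjusted p = 0.00040). Serpin F1 (pigment epithelium-derived factor), an inhibitor of angiogenesis found in plasma, was at 31.8% and 25.9%, against 2.75% and 2.57% at 0 h, a rise of 17.5 ranks (adjusted p = 0.000245). It was the only 1 of the 7 plasma markers to rise in rank, and 4 fell (Cystatin C, Fetuin A, Pentraxin 2 and RBP4). The array shares were 23.4% higher and 30.6% lower. Fetuin A, a hepatic glycoprotein that falls in the acute phase, was at ranks 75 and 72, against 86 and 85 (adjusted p = 0.000245). Its level by the reference spots was higher, at 27.7% and 22.7%, against 18.1% and 16.7% at 0 h (log2 difference 0.53 ± 0.11, adjusted p = 0.00024). Cystatin C, a protease inhibitor of all nucleated cells, was at rank 66 on both AP 2 h membranes and at 73 on both 0 h membranes (adjusted p = 0.0020). In level all 7 plasma markers were higher, beside 86.5% over the array.

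Of the matrix proteins and proteases 1 of 6 rose in rank and 4 fell, namely MMP-3, MMP-9, Osteopontin and WISP-1. Over the array 23.4% rose and 30.6% fell. In level by the reference spots 5 of the 6 were higher and 0 lower, beside 86.5% higher over the array. Periostin, a matricellular protein of fibroblasts, was at ranks 88 and 87, against 83 and 81 (adjusted p = 0.0028), and MMP-3 (stromelysin 1) was at rank 106 on both AP 2 h membranes and at 109 on both 0 h membranes (adjusted p = 0.0076). The 2 Wnt pathway proteins were both higher in level by the reference spots, as were 86.5% of all analytes, and 1 rose and 1 fell in rank. DKK-1, a secreted inhibitor of Wnt coreceptors, was at ranks 77 and 83, against 72 and 71 (adjusted p = 0.0055, and 0.094 with only the 4 samples compared). WISP-1, a matricellular target of Wnt signalling, was at 42 and 37, against 50 and 49 (adjusted p = 0.0063, but 0.0501 without replicate 2 of AP 2 h and 0.055 with only the 4 samples).

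Rank calls of members so far only counted also rested on single samples. That of RBP4 was lost without replicate 2 of AP 2 h (adjusted p = 0.094), and those of IL-7 and IL-4 were lost without that sample as well and without 1 of the 0 h samples (adjusted p up to 0.068 for IL-7 and 0.065 for IL-4). CXCL2 did not pass without replicate 1 of either time (up to 0.26). G-CSF and Gas 6 did not pass without either sample of AP 2 h or replicate 2 of 0 h (up to 0.14 for G-CSF and 0.087 for Gas 6). Flt-3 Ligand, Osteopontin and Osteoprotegerin did not pass without any one of the 4 samples (up to 0.11, 0.16 and 0.2). With only the 4 samples compared the rank calls of GM-CSF (0.055), IFN-gamma (0.10), IGFBP-2 (0.10), IL-4 (0.088), Osteopontin (0.067), Osteoprotegerin (0.065) and RBP4 (0.067) were lost as well, as was that of CCL6 in level (0.13). Over the array 19 of the 26 rises and 19 of the 34 falls in rank passed without each of the 4 samples in turn, as did 89 of the 96 rises in level.

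The AP 0.5 h and AP 16 h membranes, without those of negative pressure, show which of these levels set 2 h apart from the other times of the dressing. The reference spots of these times were closer in brightness, at 34670 ± 1160 (SD, n = 2) for AP 2 h, 32660 ± 737 for AP 0.5 h and 25448 ± 154 for AP 16 h. Against AP 0.5 h, 38 analytes (34.2%) were higher and 13 (11.7%) lower at AP 2 h, and against AP 16 h 44 (39.6%) were higher and 27 (24.3%) lower. Here too the balance depended on the scaling. In rank 16 (14.4%) were higher and 20 (18%) lower against AP 0.5 h, and 30 (27%) higher and 33 (29.7%) lower against AP 16 h. With median scaling 6 were higher and 69 lower against AP 0.5 h, and 6 higher and 89 lower against AP 16 h. With quantile normalization the counts were 18 higher and 22 lower against AP 0.5 h and 33 higher and 34 lower against AP 16 h. Against AP 16 h the authors' normalized intensity gave 61 higher and 9 lower, and the plane through the reference positions 52 higher and 12 lower.

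By the reference spots 20 analytes were higher at AP 2 h than at each of 0, 0.5 and 16 h, and 7 of these were also higher in rank at AP 2 h than at each other time. The 7 were CCL22, DKK-1, Endoglin, ICAM-1, RAGE, Serpin E1 and Serpin F1. The 3 comparisons share the AP 2 h samples, so they are not independent. With quantile normalization all 7 were also higher than at each other time. With median scaling, however, ICAM-1 (−0.98, adjusted p = 7.4e-05), Serpin F1 (−0.82, adjusted p = 0.0020) and CCL22 (−0.54, adjusted p = 0.026) were lower at AP 2 h than at AP 16 h. DKK-1 and Endoglin changed sign there without passing the test. By the reference spots Serpin E1 and Endoglin exceeded RAGE against 0 h. Against AP 0.5 h and AP 16 h RAGE had the largest log2 differences of the 7. It was at 1.67% and 1.29% at AP 0.5 h and at 0.669% and 0.655% at AP 16 h, so that its AP 2 h level exceeded them by a log2 difference of 4.02 ± 0.39 (adjusted p = 3.9e-07) and 5.17 ± 0.39 (adjusted p = 7.5e-09). Serpin E1 was at 4.71% and 4.33% at AP 0.5 h and at 3.85% and 3.57% at AP 16 h, and Endoglin at 9.03% and 9.92% at AP 0.5 h and at 11.1% and 10.6% at AP 16 h, so that both samples of either time stood above both samples at 0 h.

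Further analytes were higher at AP 2 h than at each other time by level, without being so by rank. FGF acidic was at 3.60% and 3.68% at AP 0.5 h and at 0.376% and 0.410% at AP 16 h. The differences were 1.61 ± 0.32 (adjusted p = 0.00056) and 4.82 ± 0.32 (adjusted p = 1.4e-09). From AP 0.5 h its rank difference of 4.5 did not pass (adjusted p = 0.62). Neither did its level difference with quantile normalization (0.99, adjusted p = 0.056) or median scaling (0.50, adjusted p = 0.23). PDGF-BB was at 1.66% and 2.06% at AP 0.5 h and at 0.794% and 0.276% at AP 16 h, so the AP 2 h level stood 3.63 ± 0.31 and 5.61 ± 0.31 above them (adjusted p = 1.1e-07 and 2.3e-10). Its rank was also above those at AP 0.5 h (28, adjusted p = 0.025) and AP 16 h (54.25, adjusted p = 0.00049), and only the difference from 0 h failed in rank.

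GDF-15 was highest at 0.5 h of the 4 times. It was at 7.12% and 7.69% at AP 0.5 h, which is above AP 2 h (log2 difference AP 2 h minus AP 0.5 h −2.10 ± 0.23, adjusted p = 1.5e-06), and at 0.740% and 0.679% at AP 16 h. The chemokines CXCL13, CCL12, CCL19 and CXCL9 did not pass the test between AP 2 h and AP 0.5 h in level, with log2 differences of −0.22, −0.13, −0.01 and 0.36. In rank CXCL13 was lower at AP 2 h than at AP 0.5 h (−12, adjusted p = 6.1e-06), and the others did not pass. CXCL13 was also lower in rank than at AP 16 h (−3.5, adjusted p = 0.0052), although its level was higher (0.64, adjusted p = 0.0015). EGF was lower at every later time than at 0 h, at 0.410% and 0.376% at AP 0.5 h and at 0.802% and 0.912% at AP 16 h. Its AP 2 h level was above that at AP 0.5 h by 0.98 ± 0.33 (adjusted p = 0.024) and its difference from AP 16 h did not pass the test (−0.15 ± 0.33, adjusted p = 0.72). CCL6 was at 19.2% and 19.0% at AP 0.5 h and at 68.1% and 73.7% at AP 16 h, and both exceeded AP 2 h. MMP-9, at 53.9% and 58.3% at AP 0.5 h and 3.28% and 2.72% at AP 16 h, was lower at AP 2 h than at 0.5 h and higher than at 16 h.

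**Figure D5:**
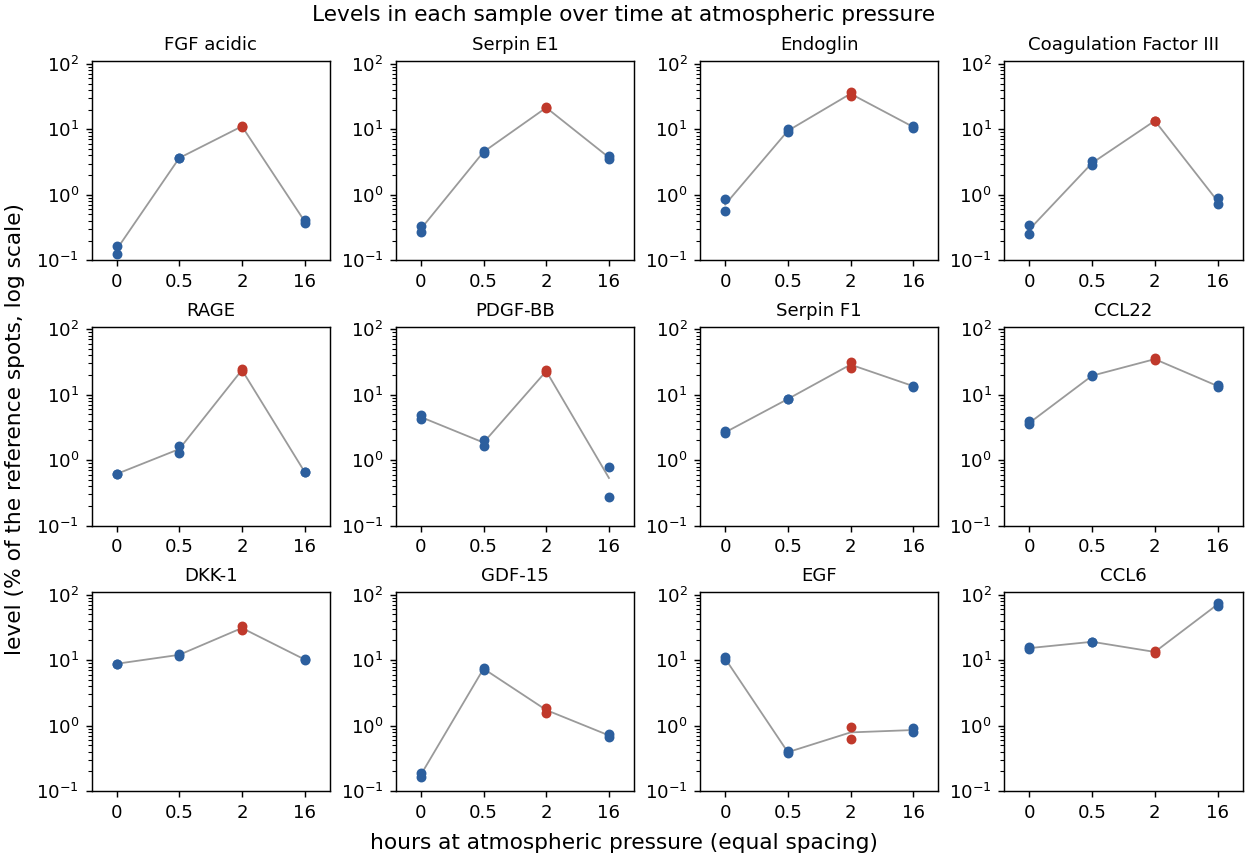
Level of each sample as a percentage of its mean reference spot (vertical axis, log scale) after 0, 0.5, 2 or 16 h at atmospheric pressure (horizontal axis, equally spaced) for 12 analytes, with the AP 2 h samples in red and the line through the means of 2 samples. RAGE and PDGF-BB are above 20% at 2 h and below 5% at every other time, GDF-15 is highest at 0.5 h, and EGF is above 10% at 0 h and below 1% from 0.5 h on.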

How the data were processed

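The deposited files hold a raw intensity of each of the 111 analytes, which the authors read from membrane images in ImageJ, and a normalized intensity, for which they scaled the brighter replicate of a group down to the reference spots of the dimmer replicate. Groups therefore keep their own brightness. The authors' fold columns were not used, 0 value columns were left unassigned, and whether a local background was subtracted is not given in the sources used here.

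Raw intensities were divided by the sample's mean of 3 reference positions, put on the log2 scale and fitted over all 14 samples with limma 3.58.1 in R 4.3.3 (lmFit, eBayes with a trend). Ranks within each membrane were fitted likewise without a trend. p-values were adjusted by Benjamini-Hochberg over the 111 analytes with a threshold of 0.05. On simulated data with 30 analytes changed, 73.7% of log2 shifts of 1 and 82.8% of shifts of 20 ranks were recovered, with 0.75 and 0.95 false calls per simulation. The simulated noise was independent between analytes, without a shift shared by a membrane, and the simulated ranks were not ranked anew. These rates therefore need not hold for the measured membranes. The named analytes are the 8 largest called rises and falls of each fit, ties included, whose samples did not overlap, with examples from each list. The analytes and lists were chosen with earlier results of these data known. 1 analyte is not reported here by name. Python 3.11.15 with pandas 2.3.3, numpy 2.4.6 and matplotlib 3.10.9 made the tables and figures. The number of membranes limits the precision.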

Additional observations from a re-analysis of the deposited data

Results flagged for a closer look

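For 12 of the analytes with the largest differences, the change from 0 h at AP 2 h differed from the change from 0 h at AP 0.5 h, by limma with Benjamini-Hochberg adjustment over the 111 analytes. The difference of the changes, AP 2 h minus AP 0.5 h on the log2 scale of the reference-scaled level, was positive for RAGE (4.02, adjusted p = 3.9e-07), Serpin E1 (2.25, adjusted p = 2.4e-08), Coagulation Factor III (2.14, adjusted p = 1.8e-06), Endoglin (1.88, adjusted p = 7.7e-08), FGF acidic (1.61, adjusted p = 0.00056), EGF (0.98, adjusted p = 0.024), CCL22 (0.84, adjusted p = 8.8e-06) and Myeloperoxidase (0.51, adjusted p = 0.0023). It was negative for GDF-15 (−2.10, adjusted p = 1.5e-06), IL-1 alpha (−1.21, adjusted p = 0.039), Leptin (−0.92, adjusted p = 0.039) and CCL6 (−0.52, adjusted p = 4.1e-05). Both changes share the 0 h samples, which cancel in the difference. It is therefore the same test as the comparison of AP 2 h with AP 0.5 h given above, not a further result. Groups of 2 samples allow no test for single outlying samples.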

How the results depend on the processing

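The reference spots set the overall direction. For AP 2 h against 0 h by level, 96 analytes were higher and 3 lower. The authors' normalized intensity gave 18 higher and 64 lower, median scaling 6 higher and 79 lower, quantile normalization 28 higher and 38 lower. The median log2 difference of 1.34 became −0.93, −1.81 and 0.020 with these, 1.69 with the plane and 0.95 with an offset of 1% of the reference spots. With the negative control subtracted, 69 were higher and 2 lower, and 137 values over the 14 samples were set to a floor of 1. Myeloperoxidase lost its call in level there (adjusted p = 0.054) and in limma without a trend (adjusted p = 0.059). With 1 sample left out, 92 to 95 were higher and 1 to 3 lower, and the median difference lay between 1.28 and 1.46. Student's t-test, which the paper used on fold changes between the pressures, was run here on the reference-scaled log2 levels instead. It called 86 higher and 1 lower at the unadjusted threshold and 83 and 1 after Benjamini-Hochberg adjustment. These counts are therefore not those of the paper's own normalization. In rank, 21 were higher and 24 lower with only the 4 samples compared, and 19 to 26 were higher and 21 to 29 lower with 1 sample left out, and 19 of the 26 rises and 19 of the 34 falls passed without each of the 4 samples.

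Against AP 0.5 h, 38 higher and 13 lower became 6 and 69 after division by the median and 18 and 22 by quantile normalization. Against AP 16 h, 44 higher and 27 lower became 6 higher and 89 lower with median scaling, 9 lower with the authors' normalized intensity and 12 lower with the plane, and 39 to 42 higher and 18 to 28 lower with 1 sample left out.

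Single values changed sign in 10 cases, whose cause was not tested. Myeloperoxidase against 0 h was 0.24 with the plane. With median scaling PDGF-BB and FGF-21 against 0 h were −0.82 and −0.31, CCL22 and ICAM-1 against AP 0.5 h −0.27 and −0.19, and against AP 16 h CCL22 was −0.54, DKK-1 −0.31, Endoglin −0.22, ICAM-1 −0.98 and Serpin F1 −0.82. The reversed difference passed the test for PDGF-BB against 0 h (adjusted p = 0.014). It also passed against AP 16 h for CCL22 (0.026), ICAM-1 (7.4e-05) and Serpin F1 (0.0020).

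The replicate numbers were not taken to pair the samples (r of deviations across analytes −0.15 between AP 2 h and 0 h, 0.24 between AP 2 h and AP 0.5 h and −0.18 between AP 2 h and AP 16 h). With the replicate number as a block, 98 were higher and 3 lower, and with the numbers of AP 2 h crossed, an alternative chosen after seeing the data, 97 and 3. In rank the block gave 25 higher and 34 lower, and Lipocalin-2 and Osteoprotegerin were the named analytes that lost their call (adjusted p = 0.051 each). Ranks turned into normal scores gave 28 higher and 30 lower. The calls of CCL2 (adjusted p = 0.36), GM-CSF (0.0775), IL-1 alpha (0.062), Lipocalin-2 (0.0775) and Osteoprotegerin (0.098) were then lost. With the lowest 25% of the analytes left out, 23 were higher and 29 lower. The rise of G-CSF was then 0.75 ranks (adjusted p = 0.84). Signals close to the negative control limit what can be said of the dim analytes.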
